A study of Rattus norvegicus with 82 samples.

Results

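Voltage-gated sodium, calcium and HCN channels set when and how strongly a neuron fires. They were read here from the genes whose symbol in the platform's annotation begins with Scn and a digit, Cacna, Cacnb, Cacng, or Hcn and a digit. The rule found 39 genes on 55 probe sets, among 14218 genes named by 1 symbol on the arrays, and each gene was represented by its probe set of highest mean. They comprised 12 Scn genes, 10 Cacna1 genes, 2 Cacna2d genes, 4 Cacnb genes, 8 Cacng genes and 3 Hcn genes. Of the 39, 30 lay above the lower limit of the scale in at least 50% of arrays. The 9 others were Cacna1e, Cacna1f, Cacna1s, Cacng1, Cacng5, Cacng6, Hcn4, Scn4a and Scn11a, and 4 of these (Cacna1f, Cacng1, Hcn4 and Scn4a) lay at that limit in every array.

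Sodium channels open during the rising phase of the action potential. The pore is an alpha subunit (Scn1a to Scn11a), and beta subunits (here Scn2b, Scn3b and Scn4b) change its gating and its place in the membrane. Calcium channels couple firing to transmitter release and to gene transcription. Cacna1 genes encode the pore, Cacna2d and Cacnb genes the auxiliary subunits, and several Cacng genes encode proteins that mainly guide AMPA-type glutamate receptors rather than calcium channels. HCN channels open on hyperpolarization and help pace rhythmic firing. They are not sodium channels in the strict sense but pass sodium and potassium.

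The study measured rat brain RNA on 82 arrays, 80 of which the labels place in a region, a treatment and a time of day. The forebrain was sampled as frontal cortex, hippocampus, amygdala, septum and hypothalamus, and the brainstem as locus coeruleus and dorsal raphe. The treatments were Sham, ADX and pADX, and the times AM and PM. Each of the 41 groups held 2 arrays, but the AM groups of Sham and of ADX in the frontal cortex held 1 each. ADX commonly stands for adrenalectomy, in which the adrenal glands are taken out and corticosterone is lost, and Sham for surgery without that step. What the p of pADX adds, and the strain, sex and age of the rats and the interval after surgery, are not stated in the labels. With times pooled, a region had 4 arrays per treatment, apart from frontal cortex Sham and ADX (3 each) and hippocampal pADX (2, both labelled PM). The region was taken from title and description. The source field went against these in 4 regions: it gave frontal cortex for locus coeruleus, dorsal raphe and septum arrays, and hippocampi for hypothalamic ones. Whether arrays came from separate animals or pools is not stated, so p-values measure only the spread between these arrays, which may be technical.

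Values are log2 intensities with a floor at 4. Where arrays of the lower group lie at that floor, a difference can be read only as a minimum. Mean intensity of single arrays before normalization, after trimming 2% at each end, ran from 34.1 to 171, and 43 of the 80 arrays shared a common value. These were every septal, amygdalar and frontal cortical array, no hippocampal or hypothalamic one, and part of the brainstem arrays, where Sham (4 of 4 in the locus coeruleus) and ADX (0 of 4 there) differed. The ratio of 3' to 5' beta-actin signal, a sign of RNA or labelling quality, had its highest regional median in the dorsal raphe (4.23) and its lowest in the hippocampus (2.48). Some markers followed the region names and others did not, and none were listed for the septum or amygdala. Of cortical markers, Tbr1 was highest in the frontal cortex (6.52) but Neurod6 in the hippocampus (10.63, against 9.82 in the frontal cortex). Prox1, Zbtb20 and Wfs1 were highest in the hippocampus, though Wfs1 (7.59) stood at 7.53 in the amygdala. The striatal genes Drd1 (8.69), Drd2 (6.61), Ppp1r1b (8.77), Adora2a (6.93) and Rgs9 (7.19) had their highest region means in the septum. The summed signal of 5 measured hypothalamic markers had a mean of 13.30 in the hypothalamus. In the amygdala it had a mean of 8.82 and ran from 7.24 to 11.03, and elsewhere its region means were 6.53 to 7.62. The serotonin transporter gene Slc6a4 averaged 10.66 in the dorsal raphe but also 9.61 in the locus coeruleus, and at most 4.15 elsewhere. Dbh, which makes noradrenaline, averaged 8.34 in the locus coeruleus and 4.05 to 4.20 elsewhere. The locus coeruleus arrays thus carried signal of both nuclei's markers.

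Promoter sequences of 5 members whose level differed most between regions are given from RefSeq (GRCr8), from 250 bases before to 50 bases after the annotated start, on the strand of the gene. Capitals mark the letters GGGCGG (a GC box, the core bound by Sp-family factors) and TTCAGCACC (the left part of the RE1 element bound by the repressor REST), on either strand. Of the 39 members, 27 had an entry. Scn7a at chr3:71846235-71846534 and Scn9a at chr3:71701328-71701627, both on the minus strand, are neighbours. They are shown because their regional profiles were alike.
Scn7a: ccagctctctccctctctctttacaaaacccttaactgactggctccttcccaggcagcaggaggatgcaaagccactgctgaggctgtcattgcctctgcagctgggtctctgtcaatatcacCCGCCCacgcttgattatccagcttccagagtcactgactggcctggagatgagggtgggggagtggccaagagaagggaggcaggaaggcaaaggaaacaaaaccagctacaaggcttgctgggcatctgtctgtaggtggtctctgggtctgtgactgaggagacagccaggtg
Scn9a: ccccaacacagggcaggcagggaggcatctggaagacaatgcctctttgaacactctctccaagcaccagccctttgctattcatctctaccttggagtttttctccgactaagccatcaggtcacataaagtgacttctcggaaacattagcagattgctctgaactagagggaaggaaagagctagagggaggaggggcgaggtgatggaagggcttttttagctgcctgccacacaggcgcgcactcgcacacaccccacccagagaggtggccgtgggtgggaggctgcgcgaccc
Scn4b at chr8:54343623-54343922 and Cacng3 at chr1:186632312-186632611 lie on the plus strand, and Cacng8 at chr1:74690954-74691253 on the minus strand. They are shown because their means differed between brainstem and forebrain or between 1 forebrain region and the others, though most ranges overlapped.
Scn4b: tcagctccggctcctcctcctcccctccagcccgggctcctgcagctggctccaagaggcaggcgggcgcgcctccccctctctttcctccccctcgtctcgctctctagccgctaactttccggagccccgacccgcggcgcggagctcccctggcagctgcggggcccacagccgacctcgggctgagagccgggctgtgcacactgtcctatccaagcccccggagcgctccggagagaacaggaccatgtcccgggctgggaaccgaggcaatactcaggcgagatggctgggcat
Cacng3: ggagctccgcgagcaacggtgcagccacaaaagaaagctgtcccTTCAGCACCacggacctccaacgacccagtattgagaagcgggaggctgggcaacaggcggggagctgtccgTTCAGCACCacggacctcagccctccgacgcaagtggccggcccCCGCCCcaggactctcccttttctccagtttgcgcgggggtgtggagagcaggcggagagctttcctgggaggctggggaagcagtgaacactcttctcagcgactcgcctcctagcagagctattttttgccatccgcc
Cacng8: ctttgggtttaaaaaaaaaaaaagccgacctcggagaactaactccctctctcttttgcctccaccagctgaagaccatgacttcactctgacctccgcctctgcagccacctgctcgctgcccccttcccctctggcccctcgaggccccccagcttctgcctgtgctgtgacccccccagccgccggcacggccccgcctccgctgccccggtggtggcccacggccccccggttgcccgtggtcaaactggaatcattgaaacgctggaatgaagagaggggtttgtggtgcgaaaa
The Cacng3 window held TTCAGCACC at 2 positions, and no other of the 27 members held it. Of all 33469 promoters of the same length, 0.356% held it. GGGCGG occurred in 13 of the 27 members (48.1%), Scn7a, Cacng3 and Hcn2 among them, and in 33.1% of all promoters. A loose form of the palindrome bound by the glucocorticoid receptor was found in 0 of the 27 and in 0.439% of all. Such matches are descriptions of these windows, not binding sites.

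Most channel genes differed between regions, about as often as other probe sets. In an F test among the 7 regions over 80 arrays, 27 of 39 members passed an adjusted p of 0.05 in limma, where 65.3% of all 31042 probe sets did. The 12 that did not pass were the 9 members mostly at the floor, plus Cacng4, Cacng7 and Scn10a. Over the 3 regions whose arrays all shared a scale, 24 members passed, against 40.6% of all probe sets. Regions were then set against the mean of the other 6, and a gene was called where limma's adjusted p was below 0.05 and the difference at least 1 log2 unit. Only 7 genes met this anywhere: Scn1a, Scn3b, Scn4b, Scn7a, Scn9a, Cacng3 and Cacng8.

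**Figure D1:**
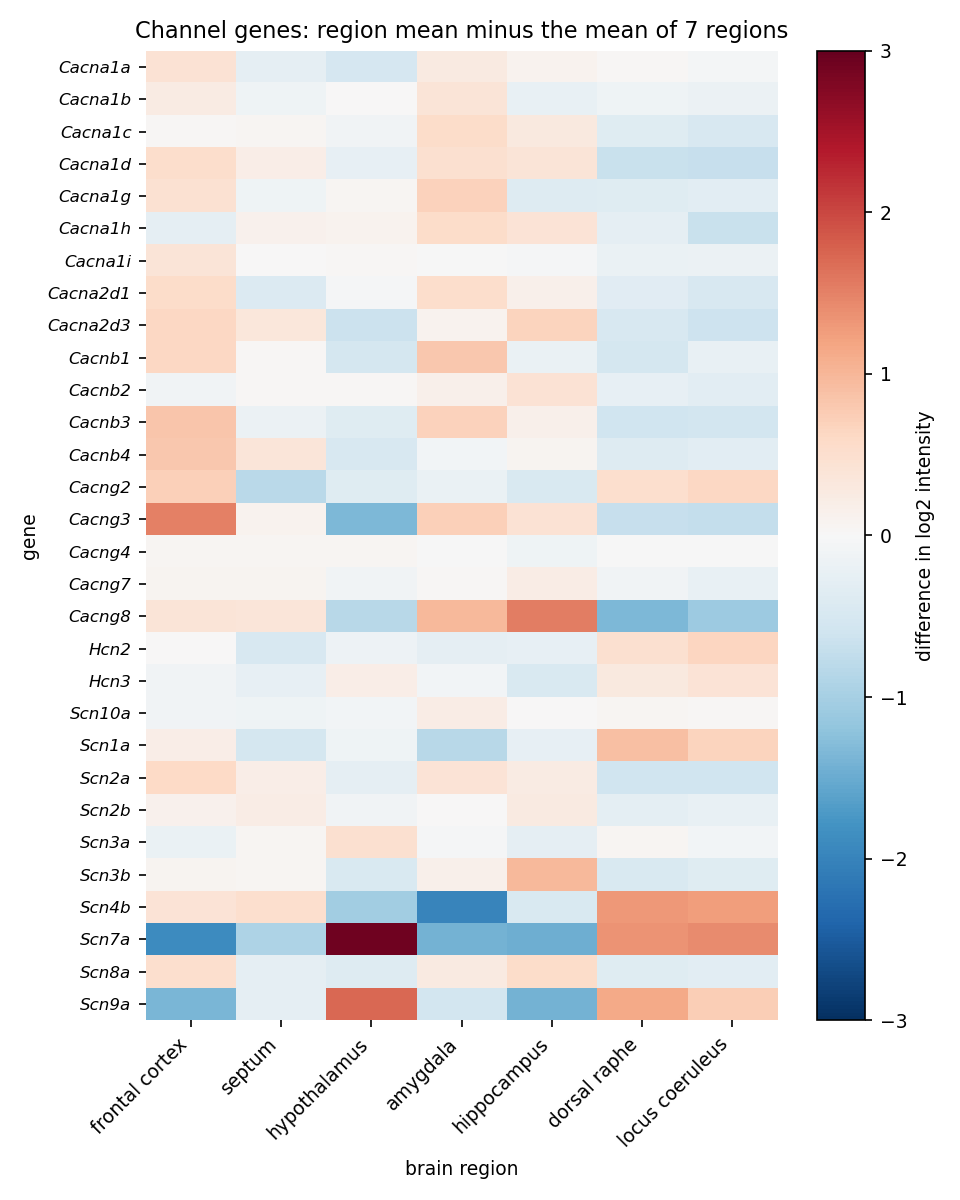
Mean log2 intensity in each of 7 brain regions minus the gene's mean over the regions, for the 30 genes above the floor in at least 50% of arrays; colour gives the difference in log2 units. The strongest colours belong to Scn7a, Scn9a, Scn4b, Cacng3 and Cacng8, and most Cacna and Cacnb rows are blue in the 2 brainstem columns on the right.

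Among the pore-forming sodium channel genes, Scn7a had the widest spread of region means, 4.82 log2 units. Scn7a encodes Nax, an atypical channel that responds to extracellular sodium rather than to voltage and is known from the circumventricular organs. In 12 hypothalamic arrays its log2 intensity had a lowest value of 8.17, a median of 8.91 and a highest of 9.29. The dorsal raphe ran from 7.04 to 7.79 with a median of 7.27, and the locus coeruleus from 7.11 to 7.76 with a median of 7.35. In the septum the values were 4.51, 5.05 and 5.56 (lowest, median and highest), in the amygdala 4 (the floor), 4.54 and 4.94, and in the hippocampus 4, 4.43 and 5.50. In the frontal cortex 9 of 10 arrays lay at the floor and the other stood at 4.66. Every hypothalamic array was above every brainstem array, and every brainstem array above every array of the other 4 regions. The dorsal raphe and locus coeruleus overlapped almost fully. Against the mean of the other 6 regions, the hypothalamus was higher by 3.41 (SE 0.099, adjusted p = 2.64e-39 in limma), which is a minimum, since 11 arrays elsewhere lay at the floor.

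Scn9a, which encodes Nav1.7, a channel that amplifies small depolarizations and is best known from pain-sensing and sympathetic neurons, ranked the regions in a similar way. Its hypothalamic values ran from 6.55 to 7.71 (median 7.23), the dorsal raphe from 6.12 to 6.87 (6.53) and the locus coeruleus from 5.47 to 6.58 (6.31). The septum held 4.65 to 5.69 (5.24) and the amygdala 4.10 to 5.38 (4.89). In the frontal cortex 8 of 10 arrays, and in the hippocampus another 8 of 10, lay at the floor, with highest values of 4.33 and 4.06. Here the hypothalamus overlapped both brainstem regions, the locus coeruleus also overlapped the septum, and the septum overlapped the amygdala. Over the other regions the hypothalamus was higher by 2.01 (SE 0.085, adjusted p = 1.27e-30 in limma), again a minimum, since 16 arrays elsewhere lay at the floor. In RefSeq's gene order Scn1a, Scn9a and Scn7a follow each other on chromosome 3 with no other protein-coding gene between.

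Scn1a encodes Nav1.1, the main sodium channel of fast-firing inhibitory neurons. It was above the floor in every array and highest in the brainstem, at 9.30 to 10.15 in the dorsal raphe (median 9.92) and 9.35 to 9.88 in the locus coeruleus (9.64). The frontal cortex followed with 8.59 to 9.53 (9.17), then the hypothalamus with 8.54 to 9.10 (8.82) and the hippocampus with 8.43 to 9.24 (8.65). The septum held 7.96 to 8.86 (8.50) and the amygdala 7.96 to 8.36 (8.09). The frontal cortex overlapped both brainstem regions at its upper end, and the other forebrain regions did not reach them. Neighbouring regions in this order overlapped throughout.

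Scn2a, Scn3a and Scn8a, the genes of Nav1.2, Nav1.3 and Nav1.6, passed the F test without any region reaching 1 log2 unit. Scn2a was highest in the frontal cortex (mean 9.38, SD 0.17, n = 10) and lowest in the locus coeruleus (8.18, SD 0.19, n = 12) and dorsal raphe (8.19, SD 0.29, n = 12). Scn3a, abundant before birth, was highest in the hypothalamus (8.08, SD 0.33) and ranged over means of 7.34 to 7.67 elsewhere. Scn8a had means of 5.10 in the hippocampus, 5.06 in the frontal cortex and 4.82 in the amygdala, and of 4.17 to 4.28 in the other regions, where 18 arrays lay at the floor. The sensory neuron channel genes Scn10a and Scn11a and the muscle gene Scn4a stayed at or near the floor, with no region mean above 4.47.

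The beta subunit gene Scn4b had the widest spread of region means, 3.28, among genes above the floor in every array. Its product speeds reopening of sodium channels during repolarization, in what is called resurgent current. Values ran from 8.62 to 9.74 in the dorsal raphe (median 9.24), from 8.72 to 9.86 in the locus coeruleus (9.22), from 7.43 to 9.33 in the septum (8.39) and from 7.85 to 8.98 in the frontal cortex (8.25). Lower levels were found in the hippocampus (6.84 to 7.84, median 7.45), the hypothalamus (6.41 to 7.30, 6.83) and the amygdala (5.47 to 6.66, 5.88). The amygdala was the lowest region, with a difference of -2.30 from the mean of the others (SE 0.110, 4.92-fold, adjusted p = 1.51e-27 in limma). Septal values were the most spread (SD 0.52), and there the summed signal of 5 striatal markers also ran widely, from 9.13 to 11.35; its part in the Scn4b level was not tested.

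Scn3b and Scn2b encode the other beta subunits. Scn3b was highest in the hippocampus, with a lowest value of 10.23, a median of 11.14 and a highest of 11.30, against 9.26 to 10.35 over all other regions. The difference was 1.14 (SE 0.064, 2.20-fold, adjusted p = 5.21e-24 in limma), and a second probe set also had its highest mean there (9.59, with 8.20 to 8.94 elsewhere). On the values as deposited the difference was 0.54, beside a median of -0.37 for all probe sets in the hippocampus. On its brighter probe set Scn2b ranged from a mean of 9.35 in the dorsal raphe to 9.92 in the hippocampus. A second, dimmer probe set spanned more, from 5.23 to 6.71 in the same regions.

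Of the Cacng genes, Cacng3 and Cacng8 carried the largest regional differences. Both encode TARPs, which bring AMPA receptors to synapses. Cacng3 was highest in the frontal cortex, at 8.21 to 9.18 (median 8.70), and lowest in the hypothalamus, at 5.07 to 6.19 (5.94), with no overlap between those regions. The amygdala (7.63 to 8.14, median 7.93), hippocampus (7.32 to 7.89, 7.62) and septum (6.90 to 7.56, 7.34) lay between, and above the dorsal raphe (6.12 to 6.88, 6.48) and locus coeruleus (6.06 to 6.73, 6.51). The frontal cortex exceeded the mean of the others by 1.76 (SE 0.077, 3.38-fold, adjusted p = 8.23e-30 in limma), and the hypothalamus differed from the mean of its others by -1.58 (SE 0.071, 2.98-fold lower, adjusted p = 3.05e-29).

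Cacng8, the TARP gene known for its hippocampal expression, had hippocampal values of 6.84 to 7.69 (median 7.32). The amygdala followed at 6.15 to 7.16 (6.78), then the frontal cortex at 5.70 to 6.54 (6.08) and the septum at 5.54 to 6.69 (6.07). The hypothalamus (4 to 5.78, median 4.80), locus coeruleus (4 to 5.18, 4.72) and dorsal raphe (4 to 5.24, 4.34) each had 1 array at the floor. The hippocampus exceeded the other regions by 1.82 (SE 0.120, 3.54-fold, adjusted p = 1.02e-20 in limma) and the amygdala by 1.12 (SE 0.110, adjusted p = 1.66e-13). In both regions the summed signal of 3 choroid plexus markers was also higher and variable, at 10.57 to 12.81 in the hippocampus and 7.86 to 12.89 in the amygdala, against region means of 6.50 to 8.18 elsewhere; its part was not tested. Cacng6, Cacng8 and Cacng7 follow each other on chromosome 1. Of its neighbours, Cacng6 lay at the floor in 57 of 80 arrays and Cacng7 did not pass the F test. Cacng2, which encodes stargazin, was the only Cacng member higher in the brainstem, with means of 7.58 in the dorsal raphe, 7.71 in the locus coeruleus and 7.80 in the frontal cortex, and of 6.27 to 6.88 elsewhere.

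**Figure D2:**
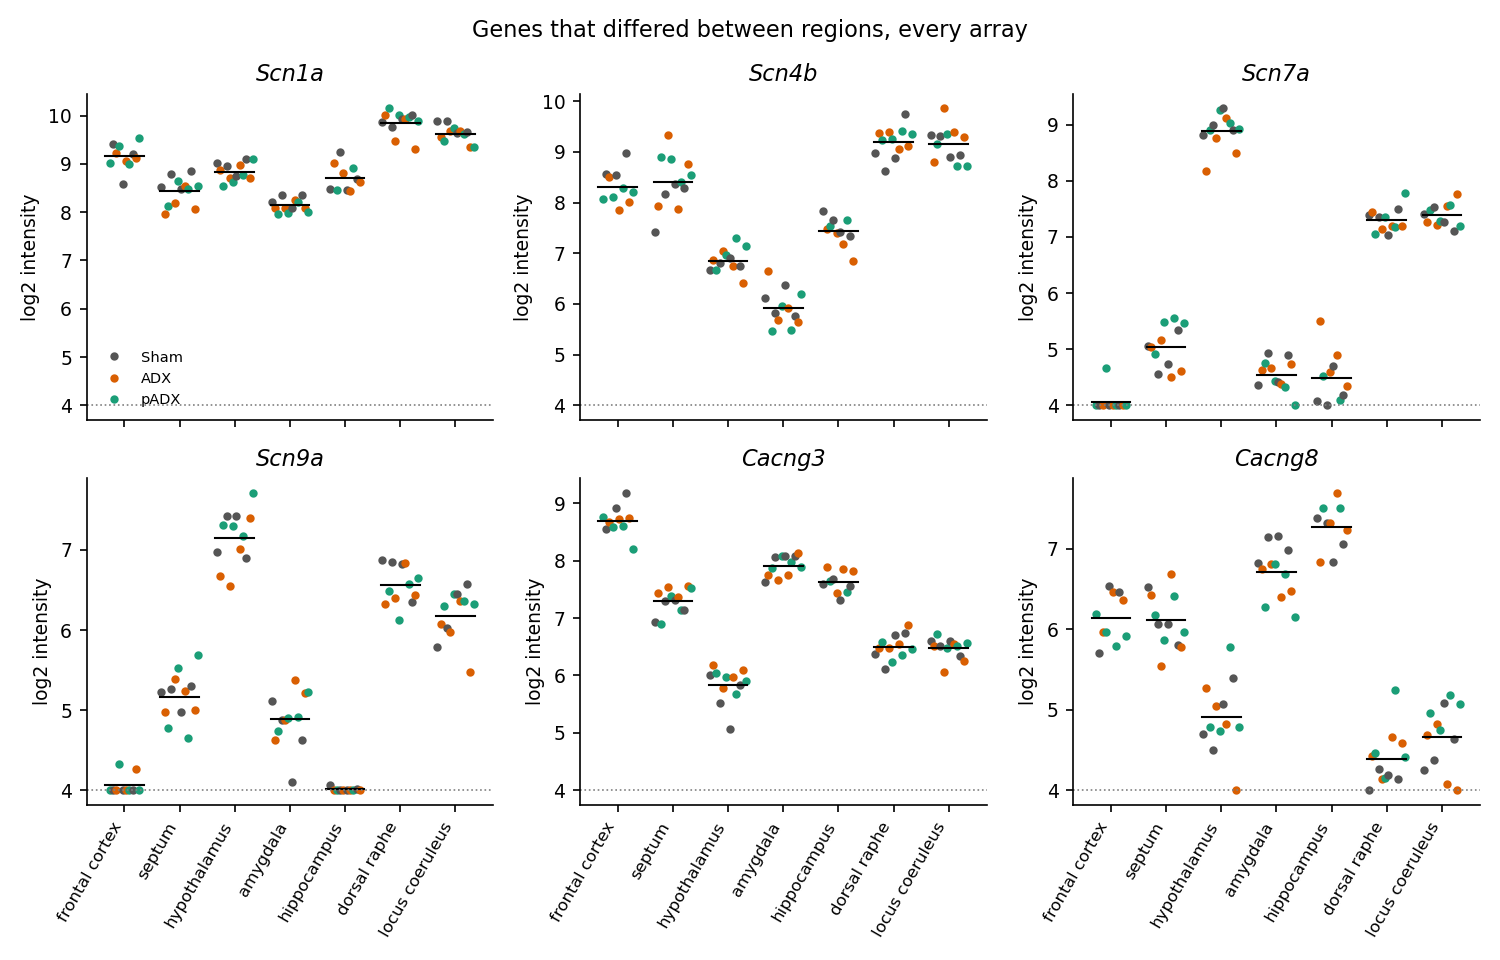
Log2 intensity of 6 channel genes in each of 80 arrays by brain region, 1 point per array coloured by treatment, with the region mean as a black bar and the floor of 4 dotted. Hypothalamic Scn7a points (8.17 to 9.29) lie above all others. Treatments overlap within most regions, but all Sham points lie above the ADX and pADX points for Scn4b in the frontal cortex (from 8.55 against up to 8.51) and for Cacng8 in the amygdala (from 6.82 against up to 6.81).

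Region by region, the calls can be set beside the share of all probe sets. In the frontal cortex 1 member was higher (Cacng3; 2.14% of all probe sets) and 2 were lower (Scn7a and Scn9a; 1.49%). The septum had 0 higher (0.754%) and 1 lower, Scn7a with a difference of -1.08 (0.37%). In the hypothalamus 2 were higher (Scn7a and Scn9a; 0.963%) and 2 lower (Cacng3 and Scn4b; 1.17%). The amygdala had 1 higher (Cacng8; 1.04%) and 2 lower (Scn4b and Scn7a; 0.503%), and the hippocampus 2 higher (Cacng8 and Scn3b; 1.29%) and 2 lower (Scn7a and Scn9a; 0.754%). The dorsal raphe had 4 higher (Scn1a, Scn4b, Scn7a and Scn9a; 0.915%) and 1 lower (Cacng8; 1.57%). In the locus coeruleus 2 were higher (Scn4b and Scn7a; 1.01%) and 1 was lower (Cacng8; 1.62%). The septal call of Scn7a ended with a floor of 8 (difference -0.97), with arrays scaled to one trimmed mean (-0.96) and on the values as deposited (-0.65). The dorsal raphe call of Scn1a (1.04) ended on the values as deposited (0.87) and just so without pADX AM replicate 1 (0.996). With a floor of 32, the calls of Scn9a in the dorsal raphe (0.96), frontal cortex (-0.89) and hippocampus (-0.86) and of Cacng8 in the amygdala (0.92) ended. Each of these kept its direction.

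Dorsal raphe and locus coeruleus together were then set against the 5 forebrain regions. At 1 log2 unit, 4 of 39 members were higher in the brainstem (1.49% of all probe sets), and all 4 were sodium channel genes. Scn7a was higher by 1.94 (SE 0.077), Scn4b by 1.79 (SE 0.086), Scn9a by 1.32 (SE 0.066) and Scn1a by 1.09 (SE 0.050). The Scn7a and Scn9a differences are minimum values, since forebrain arrays lay at the floor, and with a floor of 32 that of Scn9a was 0.89. For both genes the hypothalamus, counted in the forebrain, had a higher mean than either brainstem region. For Scn7a it was 8.89 against 7.30 (dorsal raphe) and 7.38 (locus coeruleus), and for Scn9a 7.15 against 6.56 and 6.18. Only Cacng8 was lower, with a difference of -1.71 (SE 0.086; 2.22% of all probe sets).

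Calcium channel subunits shifted the other way, by less. Counting differences of any size at limma's adjusted p of 0.05, 12 of the 16 Cacna1, Cacna2d and Cacnb members were lower in the brainstem and 0 were higher, where 22.9% of all probe sets were lower and 26.1% higher. The other 4 were Cacna1a (-0.03), Cacna1e, Cacna1f and Cacna1s, the last 3 near the floor. The L-type gene Cacna1d had a difference of -0.95, with means of 5.32 in the dorsal raphe and 5.31 in the locus coeruleus against 5.75 to 6.53 in the forebrain. The L-type gene Cacna1c differed by -0.59, the T-type genes Cacna1h, Cacna1g and Cacna1i by -0.65, -0.49 and -0.26, and the N-type gene Cacna1b by -0.21. Among auxiliary subunits, the beta genes Cacnb3, Cacnb1, Cacnb4 and Cacnb2 differed by -0.80, -0.53, -0.49 and -0.39. The alpha2delta genes differed by -0.78 (Cacna2d3) and -0.56 (Cacna2d1, whose product binds gabapentin). The hypothalamus, counted in the forebrain, was not above the brainstem for all of these genes. Its mean was 8.09 for Cacna2d3 (dorsal raphe 8.24, locus coeruleus 8.10) and 4.76 for Cacnb4 (4.86 and 4.93). For Cacnb1 it was 5.64 (5.63 and 5.95). For the remaining lower members the hypothalamic mean was above both brainstem means. Probe sets of one gene did not always behave alike. For Cacna1a, the P/Q-type gene, the probe set of highest mean gave -0.03, while its 4 other probe sets gave -0.44, -0.40, -0.04 and 0.13. Second probe sets of Cacnb1 (0.16) and Cacna1h (0.12) had the opposite sign in this contrast and did not pass the F test among regions (adjusted p = 0.37 and 0.10 in limma). The median over these 16 members was -0.49, beside 0 for all probe sets.

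The sodium channel members split evenly, with 4 of 12 higher (the genes above) and 4 lower (Scn2a by -0.82, Scn3b by -0.57, Scn8a by -0.47 and Scn2b by -0.37). Of the 3 HCN genes 2 were higher in the brainstem, Hcn2 by 0.79 and Hcn3 by 0.48, and Hcn4 lay at the floor. Hcn2 had means of 7.32 (SD 0.38, n = 12) in the locus coeruleus and 7.16 (SD 0.36, n = 12) in the dorsal raphe, and of 6.19 to 6.70 in the forebrain. Of the 8 Cacng members 1 was higher (Cacng2 by 0.78) and 3 were lower (Cacng8, Cacng3 by -0.99, and Cacng7 by -0.24).

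Other properties differed between the same regions. The summed signal of the 8 neuron markers was 14.00 to 14.50 in the dorsal raphe and locus coeruleus and 13.20 to 13.97 in the forebrain, with the neurofilament genes Nefm (12.28 and 12.02, against 9.22 to 10.32) and Nefh (11.83 and 11.73, against 8.65 to 9.28) higher but Syt1 lower (7.88 and 7.97, against 8.61 to 9.91). Summed over 5 oligodendrocyte markers, the signal was 13.75 to 14.08 in both brainstem regions and 12.64 to 13.84 in the forebrain. No neuron or oligodendrocyte marker had a region mean at the floor. Slc17a7, a glutamatergic marker, averaged 4.41 in the dorsal raphe, 4.95 in the locus coeruleus and 4.05 in the hypothalamus, against 8.42 to 9.84 elsewhere. Slc17a6, also glutamatergic, went the opposite way (10.59, 10.40 and 10.69, against 6.39 to 8.41). Of the sensory and motor markers, Prph was higher in these regions (8.12, 9.07 and 7.47, against 4.63 to 5.21). The others of that list did not separate these regions from the rest. The part of these markers and of the beta-actin ratio in the channel differences was not tested. In pieces of whole tissue, a change in the number of cells of a type and a change in RNA per cell cannot be told apart.

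Genes that work with these channels were followed in the same contrast at 1 log2 unit, which 1.49% of all probe sets passed as higher and 2.22% as lower. Of 14 measured sodium channel partners 0 were higher in the brainstem and 1 was lower, Nedd4l, a ubiquitin ligase that removes channels from the membrane (-1.40). Of 29 calcium channel partners and calcium handling genes 2 were higher, the calcium buffers Calb2 (by 1.96) and Pvalb (by 1.21). In that list 4 were lower, the kinase gene Camk2a (-3.47), the calcium release channel gene Itpr1 (-1.99), the calcium pump gene Atp2b1 (-1.26) and the buffer gene Calb1 (-1.06). Of 11 related channel genes, among them the sodium leak channel gene Nalcn, 0 differed by that much in either direction. In ADX, pADX and PM against their controls 0 genes of these 3 lists passed in limma.

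Treatment and time of day were compared over 12 units, each the mean of the 5 regions that have 12 arrays (all but frontal cortex and hippocampus) for 1 treatment, time and replicate. No member passed an adjusted p of 0.05 in limma in any of these comparisons, which called few probe sets in all. For ADX against Sham 0 of 39 members passed (0.132% of all probe sets) and 5 (12.8%) had an unadjusted p under 0.05, as did 9.02% of all probe sets. For pADX against Sham 0 passed (0.00644%), with 1 at an unadjusted p under 0.05 (7.70% of all probe sets), and for ADX against pADX 0 passed (0.0483%), with 2 (8.02%). For PM against AM 0 passed (0.00966%), with 1 (10.4%). For PM against AM within Sham 0 passed (0.0773%), with 2 (9.30%), and for the difference in that change between ADX and Sham 0 passed (0.0354%), with 4 (6.76%). The median ADX difference over the 39 members was 0, as over all probe sets. On the values as deposited, by contrast, 18 members passed for ADX against Sham, all lower in ADX, where 44.2% of all probe sets passed and their median difference was -0.21.

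Hcn2, the most widely expressed HCN gene of the brain, came closest. Its 4 Sham units stood at 6.41, 6.42, 6.54 and 6.59 on the log2 scale, the ADX units at 6.73, 6.82, 6.83 and 6.91, and the pADX units at 6.80, 6.80, 6.84 and 6.95. All 8 ADX and pADX units lay above all 4 Sham units. The difference from Sham was 0.33 (SE 0.055, 1.26-fold, adjusted p = 0.0909 in limma) for ADX and 0.36 (SE 0.055, 1.28-fold, adjusted p = 0.258) for pADX; both share the Sham units. Over the alternatives of processing the adjusted p for ADX ran from 0.0247 to 0.636. The lowest came when dim probe sets were left out (0.0247, past the threshold), the highest on the values as deposited, where the difference was 0.05 beside a median of -0.21 for all probe sets.

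By region, the Hcn2 difference in ADX was 0.70 (SE 0.216) in the septum, 0.39 (SE 0.156) in the dorsal raphe, 0.28 (SE 0.158) in the hypothalamus, 0.16 (SE 0.153) in the amygdala and 0.13 (SE 0.267) in the locus coeruleus. It was 0.06 (SE 0.187) in the frontal cortex and -0.01 (SE 0.119) in the hippocampus, which were not part of the 12 units. The pADX difference was 0.51 (SE 0.156) in the dorsal raphe and 0.48 (SE 0.216) in the septum. It was 0.25 to 0.27 in the hypothalamus, amygdala and locus coeruleus, and 0.15 (SE 0.157) in the hippocampus. In the frontal cortex it went the other way (-0.25, SE 0.177). The arrays carried a single Hcn2 probe set. In the septum the Sham arrays stood at 5.38, 5.60, 6.10 and 6.11 and the ADX arrays at 6.01, 6.42, 6.72 and 6.82, so the groups overlapped slightly. No single region passed (adjusted p from 0.309 to 1).

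**Figure D3:**
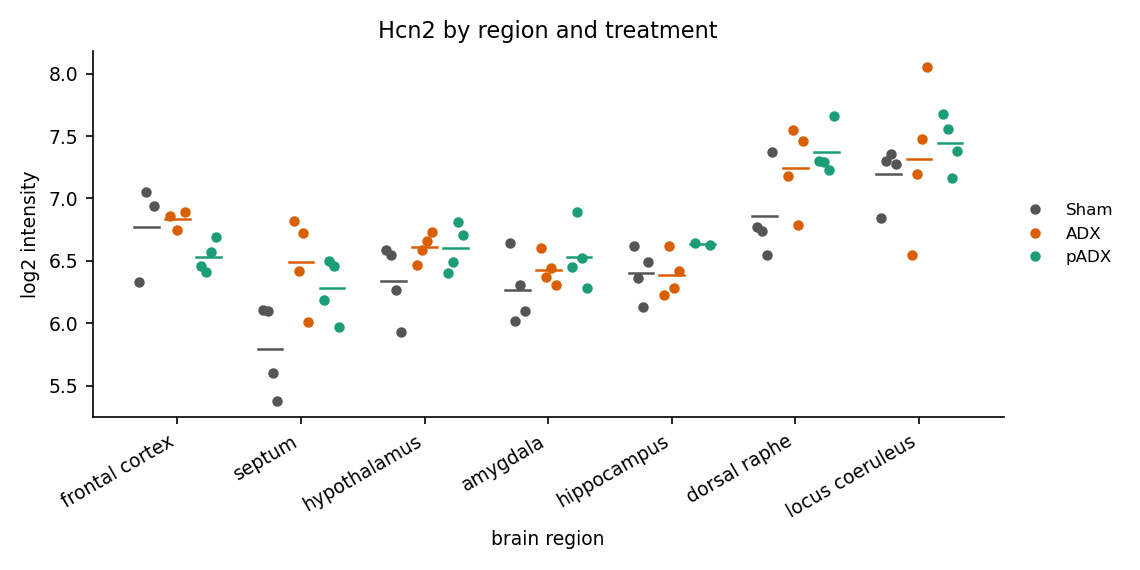
Log2 intensity of Hcn2 in each array by brain region and treatment, with group means as bars. In the septum Sham lies at 5.38 to 6.11 and ADX at 6.01 to 6.82. In the hippocampus Sham (6.13 to 6.62) and ADX (6.23 to 6.62) overlap, and the pADX arrays (6.63 and 6.64) lie just above both.

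The other members moved less. Scn1a had Sham units of 8.97, 9.10, 9.15 and 9.19 and ADX units of 8.70, 8.83, 8.90 and 9.07, a difference of -0.23 (SE 0.081, adjusted p = 0.435 in limma). Scn2a stood at 8.57 to 8.81 in Sham and 8.33 to 8.58 in ADX (-0.20, SE 0.075, adjusted p = 0.473 in limma). Cacna1d lay at 5.77 to 6.13 in Sham and 5.67 to 5.86 in ADX (-0.18, SE 0.106). On the positive side Cacnb1 was at 5.77 to 6.13 in Sham and 6.01 to 6.27 in ADX (0.17, SE 0.131), and Scn4b at 7.70 to 7.89 and 7.80 to 8.26 (0.15, SE 0.090). In all 5 of these genes the Sham and ADX units overlapped, and on the values as deposited Cacnb1 (-0.12) and Scn4b (-0.13) turned negative. Smaller differences with an unadjusted p under 0.05 were those of Scn2b (-0.11, SE 0.033) and Scn7a (-0.09, SE 0.037). Scn2b had Sham units of 9.53 to 9.62 and ADX units of 9.40 to 9.52, which did not overlap, and an adjusted p of 0.36 in limma. The second, dimmer Scn2b probe set (mean 5.94) differed in the opposite direction, by 0.16 in ADX.

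**Figure D4:**
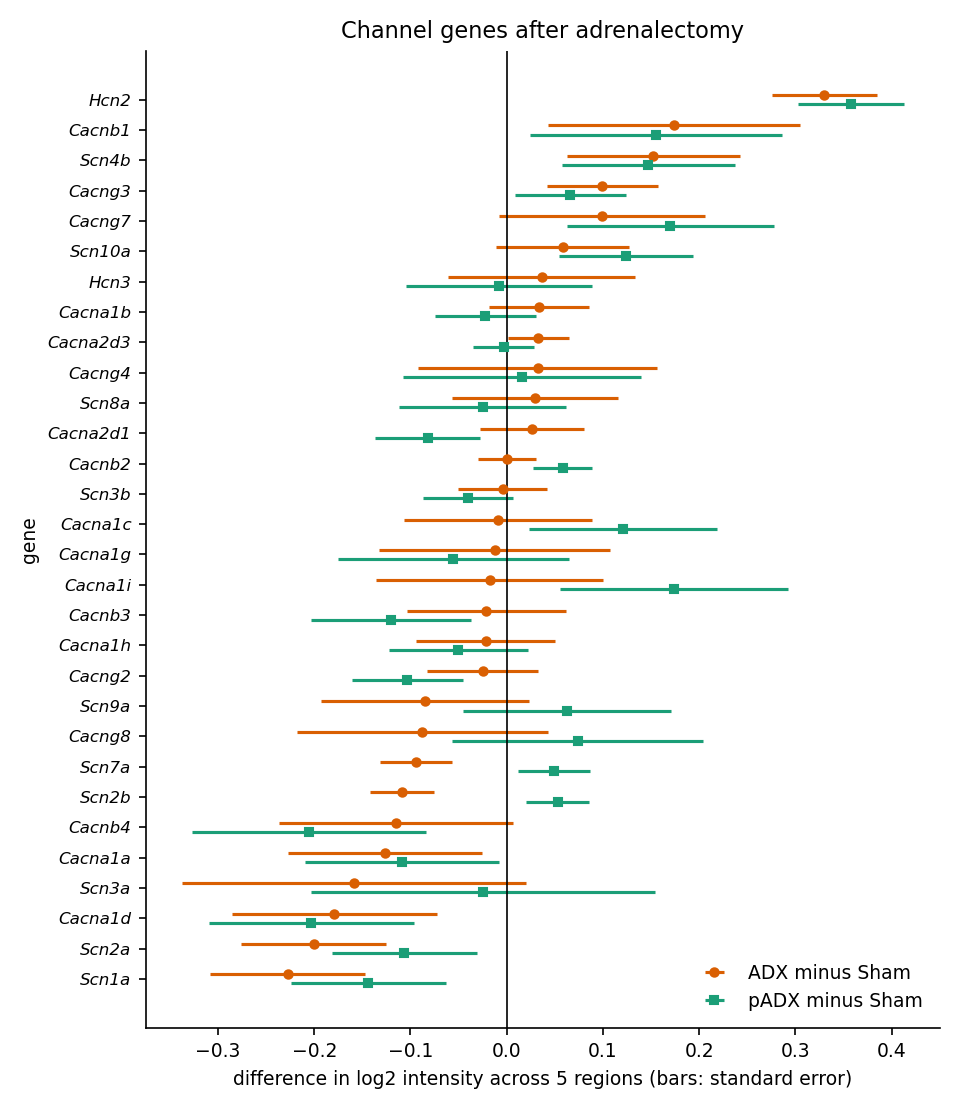
Difference from Sham in log2 intensity across 5 regions for ADX (circles) and pADX (squares), with standard errors, for the 30 genes above the floor in at least 50% of arrays. Hcn2 stands apart at 0.33 and 0.36; the other genes lie between -0.23 and 0.17.

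Time of day gave differences of the same order. From AM to PM, Scn3a went from a median of 7.62 (7.33 to 7.82, 6 units) to 7.81 (7.33 to 8.14), a difference of 0.24 (SE 0.146), and those of Scn4b and Cacna1i were 0.12 (SE 0.073) and 0.08 (SE 0.097), none past the threshold. Cacng8 had AM units of 5.26 to 5.86 (median 5.42) and PM units of 4.97 to 5.39 (5.27), a difference of -0.23 (SE 0.107). For Cacna1g and Cacnb4 the difference was -0.17 (SE 0.098) and -0.14 (SE 0.099). AM and PM overlapped in each of these 6 genes.

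Each region was also fitted alone. In ADX against Sham 0 of 39 members passed in the septum (0.0226% of all probe sets), frontal cortex (0.0161%), hypothalamus (0.0161%), amygdala (0.0129%), dorsal raphe (0.00644%), hippocampus (0.00322%) and locus coeruleus (0%). In pADX against Sham 0 members passed in the hippocampus (0.0193%), in the dorsal raphe (0.00322%) or in the locus coeruleus, amygdala, hypothalamus, septum or frontal cortex (0% each). Per region and comparison, 0 to 6 members (0% to 15.4%) had an unadjusted p under 0.05 in limma, as did 4.16% to 12.3% of all probe sets.

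An F test over all 80 arrays asked whether a treatment difference varied among regions. For ADX 1 of 39 members passed in limma (3.08% of all probe sets), Scn3b, with an adjusted p of 0.00308. Its 4 hippocampal Sham arrays stood at 11.08, 11.21, 11.26 and 11.28, its 4 ADX arrays at 10.23, 10.36, 10.65 and 10.97, and its 2 pADX arrays at 11.28 and 11.30. Every ADX array was below every Sham and pADX array. Set against Sham the hippocampal difference was -0.65 (SE 0.152), 1.57-fold lower, with an adjusted p of 0.347 in that region alone. In the hypothalamus the ADX arrays (9.63, 9.63, 9.66 and 9.79) were instead above the Sham arrays (9.41, 9.45, 9.47 and 9.55), by 0.21 (SE 0.056). In the other 5 regions the difference lay between -0.14 and 0.04.

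A second Scn3b probe set also passed the interaction test (adjusted p = 0.00981 in limma). There the hippocampal Sham arrays ran from 9.78 to 10.03, the ADX arrays from 8.74 to 9.46 and the pADX arrays from 9.96 to 10.16, a difference of -0.85 (SE 0.161) for ADX, while the hypothalamus stood at 0.03 (SE 0.097). The hippocampal ADX arrays differed widely from each other in brightness before normalization, with trimmed means of 34.1 to 171, against 85.1 to 99.2 in Sham, and in the beta-actin ratio, with 1.73 to 2.95 against 2.45 to 2.94. The dimmest of them held the highest of the 4 Scn3b values (10.97), and without it the interaction had an adjusted p of 0.000105. Leaving out Sham AM replicate 2 in all regions gave 0.0665, which ended the call. Hippocampal markers overlapped between Sham and ADX. Prox1, a marker of dentate granule cells, was at 8.55 to 9.05 in Sham (mean 8.76) and 8.30 to 9.03 in ADX (8.74). Zbtb20 was at 9.36 to 9.92 in Sham (mean 9.56) and 9.07 to 9.61 in ADX (9.39). Wfs1 was at 7.46 to 7.94 in Sham (mean 7.67) and 6.82 to 8.04 in ADX (7.38). The sum of these 3 markers was at 10.32 to 10.63 and 9.92 to 10.62. The summed choroid plexus markers were 10.57 to 12.81 in Sham and 12.15 to 12.73 in ADX, and the 8 neuron markers 13.62 to 13.77 and 13.66 to 13.76. The 6 astrocyte markers did not overlap, at 13.42 to 13.45 in Sham and 13.48 to 13.80 in ADX, nor did the 5 striatal ones, at 8.12 to 8.67 and 7.93 to 8.08. The part of brightness, of the actin ratio and of these markers in the Scn3b difference was not tested.

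**Figure D5:**
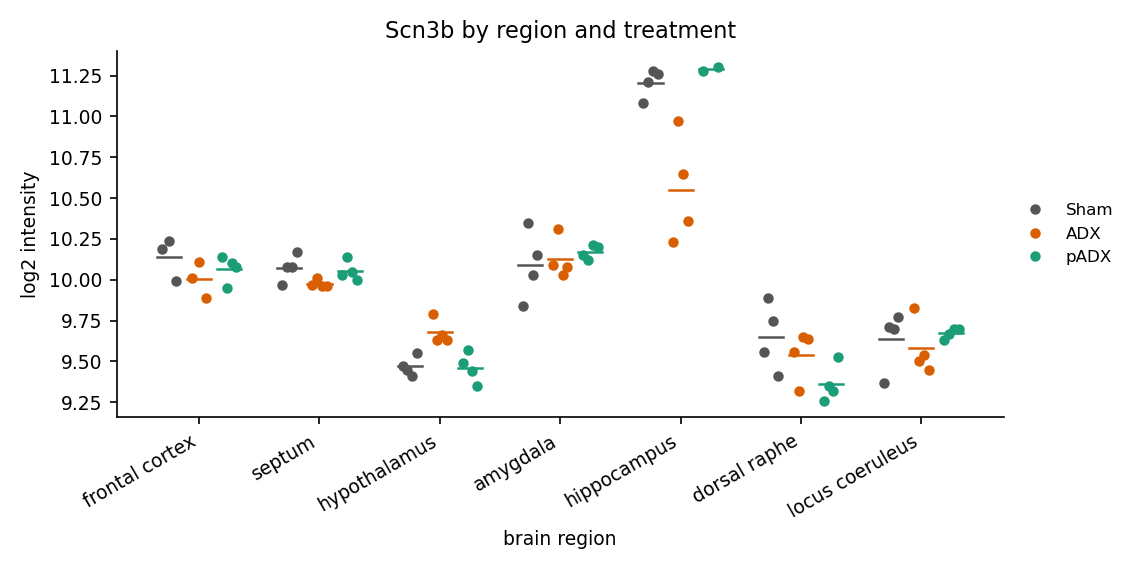
Log2 intensity of Scn3b in each array by brain region and treatment, with group means as bars. Hippocampal ADX arrays (10.23 to 10.97) lie below the Sham (11.08 to 11.28) and pADX arrays (11.28 and 11.30), and hypothalamic ADX arrays lie above Sham.

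For pADX 1 of 39 members passed the interaction test (1.55% of all probe sets), Cacnb4, with an adjusted p of 0.0366 in limma. Cacnb4 encodes a beta subunit whose loss causes ataxia and seizures in mice. Its frontal cortex Sham arrays stood at 4.46, 5.83 and 5.99 and its pADX arrays at 6.4, 6.49, 6.50 and 6.50, a difference of 1.03 (SE 0.366). In the amygdala the Sham arrays (5.34, 5.35, 5.39 and 5.90) were above all pADX arrays (4.10, 4.86, 5.0 and 5.26), a pADX difference of -0.69 (SE 0.206). The low Sham value of 4.46 came from the second PM replicate, which of the 80 arrays correlated least with its region's mean (0.979). Without that array the adjusted p was 0.202, and it rose above 0.05 in 9 of 12 fits that left out 1 combination of treatment, time and replicate. For time of day 0 of 39 members passed (0.312%), and the lowest adjusted p was 0.12 for Scn1a.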

How the data were processed

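Total RNA of rat brain regions was hybridised to 82 single-colour Affymetrix arrays. The deposited values are linear intensities per probe set, as the values themselves show; no label or header names the software or scaling behind them. The arrays held 31099 probe sets, of which 57 controls were left out of the tests. Intensities were quantile normalized over all 82 arrays, floored at 16 and taken to log2 (27.5% of values at the floor). Tests used lmFit and eBayes (with trend) of limma 3.58.1, run under R 4.3.3, with Benjamini-Hochberg adjustment over all 31042 probe sets and a threshold of 0.05. Treatment and time were tested on 12 means over 5 regions, and each region alone. Regions were tested on 80 arrays with the 12 combinations of treatment, time and replicate as a block. The scripts were tested on simulated data.

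The members and all gene lists were chosen with earlier results of these data known. Named in full were members called in a treatment or time comparison, up to 4 per region and direction with the largest called differences, up to 6 per direction between brainstem and forebrain, and the 3 largest rises and 3 largest falls in ADX and in PM among members above the floor in at least 50% of arrays. Genes given with array or unit values beyond these, such as Scn2b in ADX, were chosen after their values were seen. The number of arrays limits the precision.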

Additional observations from a re-analysis of the deposited data

Results flagged for a closer look

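A difference in treatment effect between regions passed for Scn3b in ADX (adjusted p = 0.00308 in limma) and for Cacnb4 in pADX (adjusted p = 0.0366 in limma); the array values are given above.

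Single arrays or units with a large gap to the rest, relative to the range of their group, were found in 8 of 101 groups of channel gene values looked at. Some of these gaps were small in log2 units. The rule is set for about 1 in 20 by chance, but that rate does not hold for values tied at the floor, as for Scn7a and Scn9a. Nothing is concluded from the count. The Cacng8 pADX unit of AM replicate 2 stood at 5.86, with the others at 5.26 to 5.33. Scn2a was 8.33 in the ADX unit of PM replicate 1 and 8.56 to 8.58 in the others. For Scn7a 1 frontal cortex array (pADX PM replicate 1) stood at 4.66 and the others at the floor. For Scn9a 1 hippocampal array (Sham AM replicate 1) was at 4.06, with the others at 4 (the floor) to 4.02. Cacnb4 stood at 6.4 in the frontal cortex pADX array of AM replicate 2, with the others at 6.49 to 6.50. In the amygdala its Sham AM replicate 2 was at 5.9, with the others at 5.34 to 5.39. Hcn2 was 7.66 in dorsal raphe pADX PM replicate 2 (others 7.23 to 7.30). In locus coeruleus Sham AM replicate 1 it was 6.84 (others 7.28 to 7.36).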

How the results depend on the processing

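Of 539 alternatives of the counts of called members 32 moved, that is, changed by over 1.5 times or to or from 0. Many of these counts were 0 in the main fit, and a count that stayed at 0 was taken as unmoved. Of 859 alternatives of single genes 830 kept direction and call. On the values as deposited, where array brightness differs, ADX against Sham called 18 members across 5 regions (44.2% of all probe sets). It called 10 in the dorsal raphe alone (24.9%) and 4 in the locus coeruleus alone (14.5%). ADX against pADX called 3 across 5 regions (11.5%). All of these members were lower in ADX. On those values 22 region calls were higher (12 otherwise), and 3 members were lower in the brainstem (1 otherwise). The ADX by region test called 2 and the pADX by region test 0. Cacnb1 (-0.12) and Scn4b (-0.13) reversed in ADX. For all other counts of this section, those of ADX and pADX against Sham included, the share of all probe sets is not given. Without dim probe sets ADX against Sham called 1 member, Hcn2, and the ADX by region test 2. With one trimmed mean 2 members were lower in the brainstem. With a floor of 32, Scn9a fell below 1 log2 unit in brainstem (0.89), dorsal raphe (0.96), frontal cortex (-0.89) and hippocampus (-0.86), and Cacng8 in the amygdala (0.92). Leaving out 1 combination of treatment, time and replicate gave 0 to 4 members for ADX by region, 0 to 3 for pADX by region and 1 to 2 lower in the brainstem. It gave 0 to 1 for ADX in the frontal cortex alone (1 without Sham PM replicate 1) and 0 to 1 for pADX in the hippocampus alone (1 without pADX PM replicate 1). Without the frontal cortex array least like its region, pADX by region called 0. The alternatives of the interaction tests were chosen after seeing the data. The cause of these changes was not tested. Same-numbered replicates did not deviate together (15 correlations from -0.072 to 0.056), and with the replicate number as a block 0 members were called in every treatment and time comparison (Hcn2 in ADX, adjusted p = 0.129 in limma).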

Other observations

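The labels place 2 frontal cortex arrays in no treatment, and they entered no comparison. Of the 30 channel genes above the floor in at least 50% of arrays, 21 had both of these arrays within the range of the 10 grouped frontal cortex arrays, 8 had 1 and 1 had neither. Their log2 intensities were 8.29 and 8.69 for Cacng3, 9.08 and 9.13 for Scn1a, 8.16 and 8.09 for Scn4b, 10.11 and 10.16 for Scn3b, 6.72 and 6.56 for Hcn2, and 5.66 and 6.41 for Cacnb4. Cacng8 stood at 5.63 and 5.44, both below the lowest grouped frontal cortex array (5.70).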
